A study of Oryza sativa with 11 samples.

Results

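The effect of the rice mutant ostie1-1 on anther messenger RNA was compared between anther stages 12 and 10. For every locus, the difference between ostie1-1 and wild type (WT) at stage 12 had the same difference at stage 10 subtracted from it, on log2 values. A positive result therefore means that ostie1-1 minus WT was the higher value at stage 12. All loci of the expression table took part: of 55986 loci, 21279 were tested because they reached an FPKM (fragments counted per length of transcript and per size of the library) of 1 in at least 2 libraries. The comparison was made with all 11 libraries and again with 10, leaving out WT stage 10 replicate 3, where 21103 loci were tested.

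The anthers were untreated, came from field-grown rice (Oryza sativa) and were used whole. There were 2 libraries of ostie1-1 and 3 of WT at stage 12, and 3 of each at stage 10. Replicates are numbered as biological in the labels, which leave unsaid whether they are separate plants, so the p-values reflect only the spread among these libraries, which may be technical. What kind of allele ostie1-1 is, the labels do not say, and the level of OsTIE1 itself was not used here. In whole anthers, fewer cells of a type and less RNA per cell cannot be told apart.

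In Arabidopsis, TIE1 carries a repression motif and recruits co-repressors to TCP transcription factors. Jasmonate is made from plastid lipids by lipoxygenase, allene oxide synthase and allene oxide cyclase, and it acts when its receptor COI1 removes JAZ repressors. In anthers the hormone is known for its part in filament growth, pollen maturation and the opening of the anther wall. At stage 10 of rice anther development the microspores are vacuolated and the tapetum, the nurse tissue around them, is degenerating; by stage 12 the pollen is nearly mature and stores starch.

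WT stage 10 replicate 3 stood apart. Across loci its log2 levels were closer to ostie1-1 at stage 10 (r of 0.88 to 0.90) than to replicates 1 and 2 of its own group (r of 0.79 and 0.80), although that pair reached 0.98. Its summed FPKM of photosynthesis genes was 2677, while replicates 1 and 2 of its group had 91.9 and 77.5 and no library of another group exceeded 177.9. Read counts were not used here, so the depth is unknown. FPKM sums per library lay between 749507 and 845797, and all FPKM below are divided by a median-of-ratios factor per library (0.726 to 1.32).

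At most loci the effect of ostie1-1 had the same sign at both stages. This held for 75.3% of the tested loci with 11 libraries and 76.3% with 10. Across loci the stage 12 and stage 10 effects correlated at r = 0.70 with 11 libraries and r = 0.71 with 10 (Spearman 0.68 and 0.70). These values describe loci within a single set of libraries, and loci are not independent replicates. The median difference over all loci was 0.04 with 11 libraries and 0.02 with 10. It stood at -0.11 with 11 libraries when FPKM were left unscaled and at -0.14 when they were converted to TPM, so the differences below are relative to the median-of-ratios scaling.

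**Figure D1:**
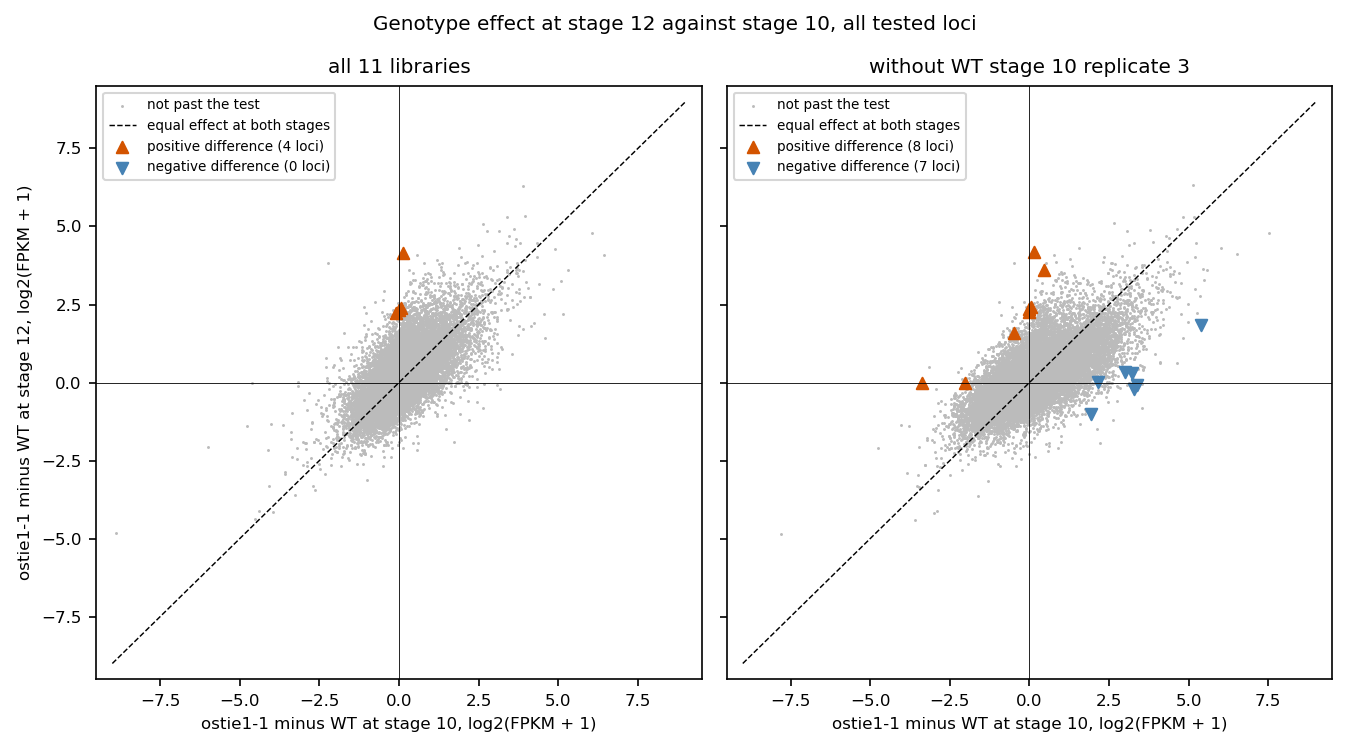
Each point is 1 tested locus, with the effect of ostie1-1 minus WT at stage 12 on the vertical axis and at stage 10 on the horizontal axis (log2(FPKM + 1)), with all 11 libraries on the left and without WT stage 10 replicate 3 on the right. Triangles are loci past the test of the difference, 4 on the left and 15 on the right; the grey cloud of the other loci stretches along the diagonal, and the dashed line marks equal effects.

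The effect of ostie1-1 passed the test (limma, Benjamini-Hochberg adjusted p below 0.05 over all loci) at 750 loci at stage 12, which is 3.52% of those tested, with 685 higher (3.22%) and 65 lower (0.305%) than WT. At stage 10 it passed at 618 loci (2.9%), with 500 higher (2.35%) and 118 lower (0.555%). The 2 lists shared 190 loci, 25.3% of the stage 12 list and 30.7% of the stage 10 list, and all 190 had the same sign at both stages. At most loci called at 1 stage alone the difference itself did not pass. Of the 560 loci called at stage 12 alone, 511 (91.3%) had the same sign at stage 10 and the difference passed at 4, with an unadjusted p below 0.05 at 387. Of the 428 called at stage 10 alone, 395 (92.3%) had the same sign at stage 12 and the difference passed at 0 in limma, with an unadjusted p below 0.05 at 169. Leaving out 1 library in turn gave 207 to 3497 calls at stage 12 and 157 to 7118 at stage 10, the most without WT stage 10 replicate 3 in both cases and the fewest without ostie1-1 stage 12 replicate 1 and without ostie1-1 stage 10 replicate 2.

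Leaving out WT stage 10 replicate 3 raised the number of calls at both stages. All groups shared 1 estimate of the spread per locus, so this library also entered the stage 12 test. The median SE of the stage 12 effect was 0.43 with 11 libraries and 0.33 with 10. The median absolute effect at stage 12 was 0.51 and 0.52 (log2). The effect then passed at 3497 loci at stage 12 (16.6%, with 2304 higher, 10.9%, and 1193 lower, 5.65%) and at 7118 at stage 10 (33.7%, with 3964 higher, 18.8%, and 3154 lower, 14.9%). The lists shared 2329 loci, 66.6% of the stage 12 list and 32.7% of the stage 10 list, and 10 of these had opposite signs. The difference passed at 6 of the 1168 loci called at stage 12 alone and at 7 of the 4789 called at stage 10 alone, and an unadjusted p below 0.05 held at 586 and 1652 of them. Loci called higher at stage 12 had a median effect of 1.62 at stage 12 and 1.41 at stage 10, and those called higher at stage 10 had medians of 0.87 at stage 12 and 1.60 at stage 10 (log2). Each list was chosen on the effect at its own stage, so these medians are a description.

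The difference between the stages passed at 4 loci with 11 libraries, 0.0188% of those tested, all 4 positive. An unadjusted p below 0.05 held at 1153 loci (5.42%), with 826 positive and 327 negative. Without WT stage 10 replicate 3 the difference passed at 15 loci (0.0711%), 8 positive (0.0379%) and 7 negative (0.0332%), and all 4 were among the 15. An unadjusted p below 0.05 then held at 3054 loci (14.5%), with 1622 positive and 1432 negative. With 10 libraries, 10 of the 15 reached an FPKM of 1 in libraries of 1 group alone: 5 in ostie1-1 at stage 12, 3 in ostie1-1 at stage 10 and 2 in WT at stage 10. LOC_Os03g40800 and LOC_Os04g38690 reached it in only 1 library outside the group in which they were high, short of the 2 required. They and the 10 entered the test through the group in which they were high. The p values of all these describe loci that had to differ and support nothing further. The split with 11 libraries was 6 positive to 1 negative on unscaled FPKM and 7 to 2 after quantile normalization, and with 10 libraries quantile normalization gave 13 to 7. With a pseudocount of 0.1 or with TPM, 0 loci passed in limma in either fit; with 11 libraries an unadjusted p below 0.05 then held at 782 and 874 loci, and with 10 at 2655 and 2878. From the 10 libraries, leaving out 1 more gave at most 1 locus, except 91 without ostie1-1 stage 10 replicate 1.

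A locus that missed the threshold is not shown to respond alike at both stages. The median standard error (SE) of the difference was 0.57 with 11 libraries and 0.46 with 10. Its 95% interval lay within 1 log2 unit of 0 at 917 loci with 11 libraries (4.31%) and at 2226 with 10, and within 2 units at 13932 (65.5%) and 15067 (71.4%).

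The 4 loci that passed with 11 libraries shared a pattern: they were nearly silent except in ostie1-1 at stage 12. Neither the deposited table nor the RefSeq gene table (assembly ASM3414082v1) gives a name or function for these IDs or those of the 11 further loci below. LOC_Os03g40800 had 25.0 and 24.1 FPKM in ostie1-1 at stage 12, against 0.811, 0 and 0.623 in WT, and 0, 0.337 and 0 in ostie1-1 at stage 10, against 0 in all 3 libraries of WT. Both ostie1-1 stage 12 libraries stood far above all others, and the stage 10 groups overlapped. Before scaling, only 1 library outside ostie1-1 at stage 12 reached an FPKM of 1. This locus therefore entered the test through the group in which it was high, and it had to differ. On the log2(FPKM + 1) scale the effect was 4.16 (SE 0.30) at stage 12 and 0.14 (SE 0.27) at stage 10. The difference was 4.02 (SE 0.40; limma adjusted p = 0.0134), and 4.03 (adjusted p = 0.0293) with 10 libraries.

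Levels were lower at the other 3 loci, none of which exceeded 5.68 FPKM in any library. LOC_Os04g17220 had 5.09 and 3.101 FPKM in ostie1-1 at stage 12 and was listed at 0 in every library of the other groups. LOC_Os06g13780 had 5.68 and 3.43 FPKM in ostie1-1 at stage 12, against 0, 0 and 0.103 in WT, and 0, 0 and 0.116 in ostie1-1 at stage 10, against 0 in all 3 libraries of WT. LOC_Os08g33170 had 4.95 and 3.86 FPKM in ostie1-1 at stage 12, against 0.137, 0 and 0.315 in WT, and 0 in all 3 libraries of ostie1-1 at stage 10, against 0, 0 and 0.199 in WT. In each case both ostie1-1 stage 12 libraries lay above all others, and the stage 10 groups overlapped. The differences were 2.32 (SE 0.28), 2.34 (SE 0.30) and 2.32 (SE 0.29) in this order of loci, each with a limma adjusted p of 0.0353. These 3 loci passed the filter through the 2 libraries in which they were high, so they had to differ, and without either of those libraries they were not tested. Leaving out any 1 library other than WT stage 10 replicate 3 left at most 1 locus past the test.

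Without WT stage 10 replicate 3, a pair of further loci showed the same pattern. LOC_Os06g36370 had 12.1 and 22.1 FPKM in ostie1-1 at stage 12, against 0.369, 0.637 and 0.319 in WT, and 0, 0.461 and 0.719 in ostie1-1 at stage 10, against 0, 0 and 0.269 in WT. LOC_Os12g13540 had 2.13 and 1.74 FPKM in ostie1-1 at stage 12, against 0 in all 3 libraries of WT, and 0 in all 3 libraries of ostie1-1 at stage 10, against 0.504, 0.254 and 0 in WT. Both lay above WT at stage 12 with no overlap. At stage 10 LOC_Os06g36370 overlapped WT, while LOC_Os12g13540 met WT only at the 0 of WT stage 10 replicate 3. The differences were 3.17 (SE 0.45; limma adjusted p = 0.0427) and 2.04 (SE 0.26; adjusted p = 0.0323), while with 11 libraries the adjusted p values were 0.0538 and 0.0591. Both reached an FPKM of 1 in the 2 ostie1-1 stage 12 libraries alone, and without either of these they were not tested. LOC_Os03g40800, LOC_Os07g24000, LOC_Os10g22362 and LOC_Os05g37110 were named by a rule on the size of the difference, and the other loci past the test were described after their values were seen.

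At 5 loci ostie1-1 was called higher at stage 10 alone in the 10-library fit. LOC_Os05g37110, the most abundant, had 0 and 0.209 FPKM in ostie1-1 at stage 12, against 0.733, 0 and 0.188 in WT, and 187, 128 and 112 in ostie1-1 at stage 10, against 14.6, 12.7 and 16.3 in WT. The transcript was near 0 in both genotypes at stage 12, while at stage 10 the groups stood apart and WT stage 10 replicate 3 lay with its group. The difference was -3.49 (SE 0.46; limma adjusted p = 0.0323), and with 11 libraries it was -3.39 (adjusted p = 0.0542). Relative to stage 10, this transcript fell at stage 12 in both genotypes, by 7.04 in ostie1-1 and by 3.55 in WT (log2; limma adjusted p = 1.32e-05 and 0.00244).

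LOC_Os04g38690 had 0 FPKM in both libraries of ostie1-1 at stage 12, against 0.141, 0 and 0 in WT, and 21.1, 18.6 and 14.2 in ostie1-1 at stage 10, against 1.19, 0.543 and 2.15 in WT. LOC_Os07g38810 had 0.119 and 0.246 FPKM in ostie1-1 at stage 12, against 0.220, 0.0630 and 0.253 in WT, and 5.17, 4.88 and 4.95 in ostie1-1 at stage 10, against 0.281, 0.453 and 0.479 in WT. At both, all 3 ostie1-1 stage 10 libraries lay above every other library, and the stage 12 groups overlapped. The differences were -3.45 (SE 0.38; limma adjusted p = 0.0293) and -2.16 (SE 0.30; adjusted p = 0.0409). With 11 libraries both had an adjusted p of 0.0542. LOC_Os07g38810 reached an FPKM of 1 in ostie1-1 at stage 10 alone. With 10 libraries LOC_Os04g38690 reached it in only 1 further library, so both entered that fit through the group in which they were high.

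The other two of this class moved more with that library. LOC_Os02g32850 had 0.520 and 0 FPKM in ostie1-1 at stage 12, against 0 in all 3 libraries of WT, and 12.5, 9.17 and 9.06 in ostie1-1 at stage 10, against 0.493, 0 and 2.45 in WT. LOC_Os03g47584 had 0.627 and 0.0573 FPKM in ostie1-1 at stage 12, against 0.134, 0 and 0 in WT, and 8.52, 7.53 and 5.62 in ostie1-1 at stage 10, against 0, 0.0921 and 5.33 in WT. WT stage 10 replicate 3 gave the highest WT value at both, and at LOC_Os03g47584 it came close to the lowest ostie1-1 stage 10 library. The differences were -2.92 (SE 0.40; limma adjusted p = 0.0409) and -2.67 (SE 0.37; adjusted p = 0.0427). With 11 libraries they were -2.39 (adjusted p = 0.298) and -1.76 (adjusted p = 0.987). With 10 libraries both loci reached an FPKM of 1 in ostie1-1 at stage 10 alone. They entered that fit through the group in which they were high, so they had to differ.

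At 2 loci ostie1-1 was called lower at stage 10 alone. LOC_Os07g24000 had 0.288 and 0.273 FPKM in ostie1-1 at stage 12, against 0.746, 0.0612 and 0.184 in WT, and 0.252, 0 and 0.207 in ostie1-1 at stage 10, against 8.01, 13.8 and 164 in WT. LOC_Os09g33700 was listed at 0 in every stage 12 library and in ostie1-1 at stage 10, against 3.50, 2.54 and 4.98 FPKM in WT at stage 10. All 3 WT stage 10 libraries lay above ostie1-1 at both loci, and replicate 3 was the highest of them. The differences were 3.34 (SE 0.42) and 2.03 (SE 0.26), each with a limma adjusted p of 0.0323. With 11 libraries they were 4.59 (SE 1.23; adjusted p = 0.351) and 2.19 (SE 0.32; adjusted p = 0.0542). Both loci reached an FPKM of 1 in WT stage 10 libraries alone, and without WT stage 10 replicate 3 and 1 more of these they were not tested.

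A last pair of loci was called at both stages. LOC_Os10g22362 had 2.79 and 6.19 FPKM in ostie1-1 at stage 12, against 0.549, 0.945 and 0.0632 in WT, and 86.5, 82.2 and 82.1 in ostie1-1 at stage 10, against 0.786, 1.36 and 55.6 in WT. With 10 libraries it was higher in ostie1-1 by 1.84 at stage 12 and by 5.39 at stage 10 (log2; limma adjusted p = 0.00874 and 0.000130). LOC_Os02g42470 had 14.2 and 13.3 FPKM in ostie1-1 at stage 12, against 22.4, 32.8 and 31.0 in WT, and 19.6, 17.5 and 17.7 in ostie1-1 at stage 10, against 3.87, 4.32 and 22.6 in WT. Its effect was -1.003 at stage 12 and 1.93 at stage 10 with 10 libraries (adjusted p = 0.0193 and 0.000593). WT stage 10 replicate 3 was far above the other WT stage 10 libraries at both loci, and at LOC_Os02g42470 it exceeded all 3 ostie1-1 libraries. The differences were -3.55 (SE 0.50; adjusted p = 0.0427) and -2.94 (SE 0.33; adjusted p = 0.0293). With 11 libraries they were -1.95 (adjusted p = 0.999) and -2.18 (adjusted p = 0.614).

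**Figure D2:**
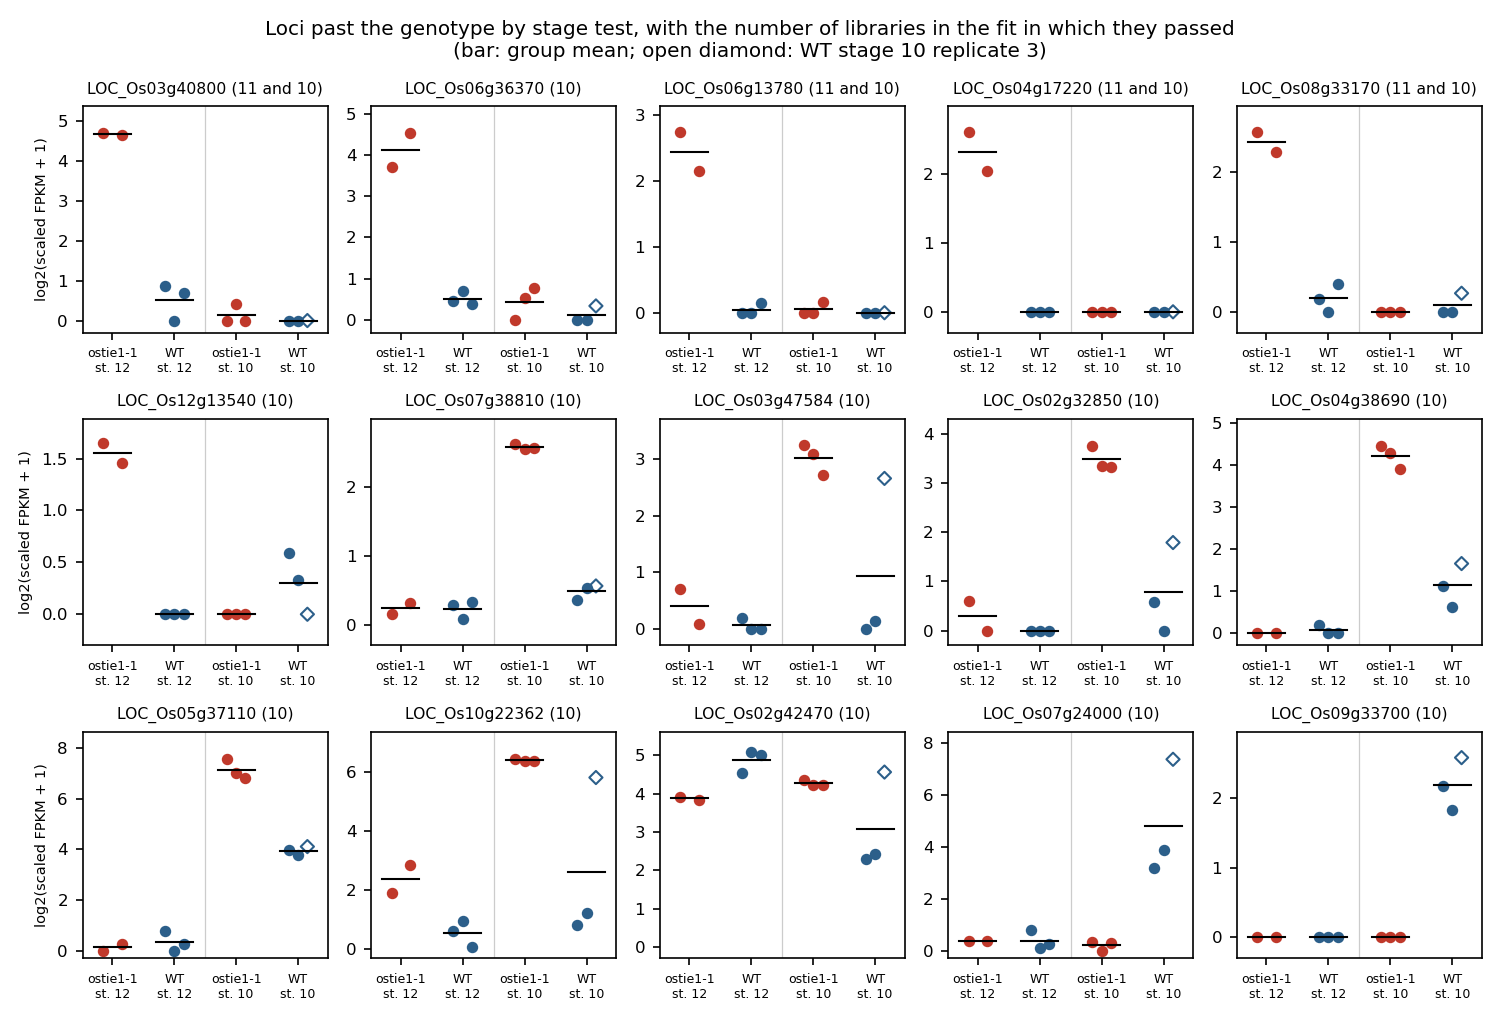
Levels of the 15 loci past the test of the difference, as log2(scaled FPKM + 1) with a separate vertical axis for each locus. Points are libraries of ostie1-1 (red) and WT (blue) at stage 12 (left of the line) and stage 10, bars are group means and the open diamond is WT stage 10 replicate 3, which on this scale lies nearer to the ostie1-1 stage 10 mean than to the mean of the other WT stage 10 libraries at LOC_Os10g22362, LOC_Os02g42470, LOC_Os03g47584, LOC_Os06g36370 and LOC_Os12g13540.

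Known anther and hormone genes were followed in 22 lists with 295 loci, of which 293 were in the table and 197 were tested. Names were paired with IDs from general knowledge and are used only where RefSeq lists the name on the chromosome that the ID gives, which held for 150; the pairing was not checked against an annotation. In the limma test of the difference 0 list members passed, with 11 libraries or with 10. With 11 libraries an unadjusted p below 0.05 held at 12 of 197 members (6.09%, against 5.42% of all loci), 8 positive and 4 negative, and the smallest adjusted p was 0.146. With 10 libraries it held at 44 of 195 (22.6%, against 14.5%), 15 positive and 29 negative, and 6 members had an adjusted p below 0.1. Apart from the smallest-p member of each jasmonate and TCP list, the members below were chosen after their values were seen.

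Jasmonate biosynthesis genes had median effects above 0 at both stages, but not every member was higher in ostie1-1. LOC_Os01g12160 lay below WT at stage 12 with no overlap (effect -1.29, SE 1.23, 11 libraries). Its stage 10 effect was -1.51 with 11 libraries and 0.10 with 10. Over the 5 tested of 11, the medians with 11 libraries were 1.20 at stage 12 and 1.32 at stage 10, against 0.05 and -0.01 over all loci, and 1 member was called higher at each stage (3.22% of all loci were at stage 12 and 2.35% at stage 10). With 10 libraries 2 of 5 were called higher at stage 12 (10.9% of all loci were) and 4 at stage 10 (18.8%). The median difference was 0.22 with 11 libraries, where another scaling gave -0.01, and -0.69 with 10. AOS1 (LOC_Os03g55800), an allene oxide synthase that commits lipid to jasmonate, had 42.4 and 56.6 FPKM in ostie1-1 at stage 12, against 9.51, 10.2 and 12.4 in WT, and 106, 66.2 and 42.2 in ostie1-1 at stage 10, against 9.07, 8.78 and 68.6 in WT. At stage 12 the groups stood apart, and at stage 10 they overlapped through WT stage 10 replicate 3. Its difference was 0.26 (SE 0.98) with 11 libraries and -0.69 (SE 0.49; limma adjusted p = 0.562) with 10.

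AOC (LOC_Os03g32314), the allene oxide cyclase of the next step, had 42.5 and 42.9 FPKM in ostie1-1 at stage 12, against 14.9, 22.8 and 17.2 in WT, and 105, 52.5 and 37.7 in ostie1-1 at stage 10, against 16.5, 16.9 and 44.1 in WT. Here too the stage 10 overlap came from WT stage 10 replicate 3. The difference was -0.12 (SE 0.66) with 11 libraries and -0.58 (SE 0.53) with 10. The member with the smallest p with 11 libraries, LOC_Os01g67430, had 2.71 and 6.10 FPKM in ostie1-1 at stage 12, against 1.21, 1.72 and 0.863 in WT, and 8.38, 6.71 and 4.60 in ostie1-1 at stage 10, against 1.96, 0.954 and 14.3 in WT. It did not pass, and its difference was 0.47 (SE 0.96; limma adjusted p = 0.999) with 11 libraries and of the opposite sign, -0.44 (SE 0.52), with 10.

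Over 12 tested of 18 jasmonate signalling genes the median difference was -0.11 with 11 libraries and -0.72 with 10. With 10 libraries 5 were called higher at stage 12 (10.9% of all loci were) and 8 at stage 10 (18.8%). COI1b (LOC_Os05g37690), a jasmonate receptor F-box protein, had 19.0 and 25.0 FPKM in ostie1-1 at stage 12, against 12.2, 13.3 and 15.5 in WT, and 50.0, 45.2 and 30.9 in ostie1-1 at stage 10, against 7.07, 5.64 and 55.7 in WT. WT stage 10 replicate 3 was the highest of all libraries, and without it ostie1-1 lay above WT at both stages. Its difference was -0.90 (SE 0.97; limma adjusted p = 0.999) with 11 libraries and -1.90 (SE 0.38; adjusted p = 0.0978) with 10.

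JAZ repressors had differences of either sign, none past the test. With 10 libraries the effect for JAZ10 (LOC_Os03g08330) was 2.95 at stage 12 and 2.02 at stage 10, a difference of 0.93 (SE 0.58), and with 11 libraries the difference was 1.60 (SE 0.82). For JAZ11 (LOC_Os03g08320) it was 1.45 at stage 12 and 2.34 at stage 10, a difference of -0.89 (SE 0.62), and with 11 libraries the difference was -0.44 (SE 0.73). JAZ8 (LOC_Os09g26780) was called higher at both stages in both fits, with a difference of -0.11 (SE 0.67) with 11 libraries and -0.55 (SE 0.55) with 10. The smallest p of this list with 11 libraries belonged to LOC_Os10g25250, which had 144 and 109 FPKM in ostie1-1 at stage 12, against 24.3, 26.0 and 51.5 in WT, and 14.6, 9.77 and 6.34 in ostie1-1 at stage 10, against 9.97, 4.93 and 8.24 in WT. Its groups stood apart at stage 12 and overlapped at stage 10, and its difference of 1.59 (SE 0.59; limma adjusted p = 0.693) did not pass; with 10 libraries it was 1.51 (SE 0.60).

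All 4 tested of 11 jasmonate-inducible defence genes had a positive difference, with a median of 1.30 with 11 libraries and 0.59 with 10. CPS2 (LOC_Os02g36210), a diterpene cyclase of phytoalexin synthesis, had 7.99 and 3.31 FPKM in ostie1-1 at stage 12, against 1.14, 0.402 and 1.05 in WT, and 0.104, 0.164 and 0.795 in ostie1-1 at stage 10, against 0.0224, 0 and 0.0637 in WT. The groups did not overlap at either stage, with every stage 10 level below 1. Its difference of 1.40 (SE 0.47; limma adjusted p = 0.571) had the smallest p of the list and did not pass, and with 10 libraries it was 1.38 (SE 0.50). JAmyb (LOC_Os11g45740), a jasmonate-inducible MYB factor, had 22.6 and 21.4 FPKM in ostie1-1 at stage 12, against 0.854, 1.09 and 3.33 in WT, and 6.43, 9.14 and 8.61 in ostie1-1 at stage 10, against 0.534, 0.440 and 4.38 in WT. It too lay above WT at both stages with no overlap, and its difference was 1.19 (SE 0.77) with 11 libraries and 0.55 (SE 0.52) with 10.

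Among TCP transcription factors, 15 of 20 were tested, and their median difference was -0.15 with 11 libraries and -0.73 with 10. With 10 libraries 13 of the 15 differences were negative, and 7 had an unadjusted p below 0.05 (14.5% of all loci did). At stage 12, 2 members were called higher, a share near the 10.9% of all loci, and at stage 10 it was 10 members, against 18.8% of all loci. PCF8 (LOC_Os12g42190), a TCP protein, had 6.45 and 4.47 FPKM in ostie1-1 at stage 12, against 1.69, 1.29 and 2.32 in WT, and 10.9, 16.1 and 8.08 in ostie1-1 at stage 10, against 0.863, 0.966 and 14.4 in WT. WT stage 10 replicate 3 lay within the ostie1-1 range, and its difference was -0.46 (SE 1.02) with 11 libraries and -1.48 (SE 0.46; limma adjusted p = 0.190) with 10. LOC_Os11g07460, with the smallest p of the list, had 0.796 and 0.709 FPKM in ostie1-1 at stage 12, against 1.57, 0.0529 and 0.265 in WT, and 6.83, 5.29 and 5.11 in ostie1-1 at stage 10, against 0.141, 0.143 and 1.41 in WT. Its stage 10 groups stood apart with or without WT stage 10 replicate 3, and its stage 12 groups overlapped. With 10 libraries it reached an FPKM of 1 before scaling in only 1 library outside ostie1-1 at stage 10. It entered that fit through the group in which it was high. Its difference was -1.98 (SE 0.58; adjusted p = 0.473) with 11 libraries and -2.37 (SE 0.50; adjusted p = 0.0989) with 10, so it did not pass.

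**Figure D3:**
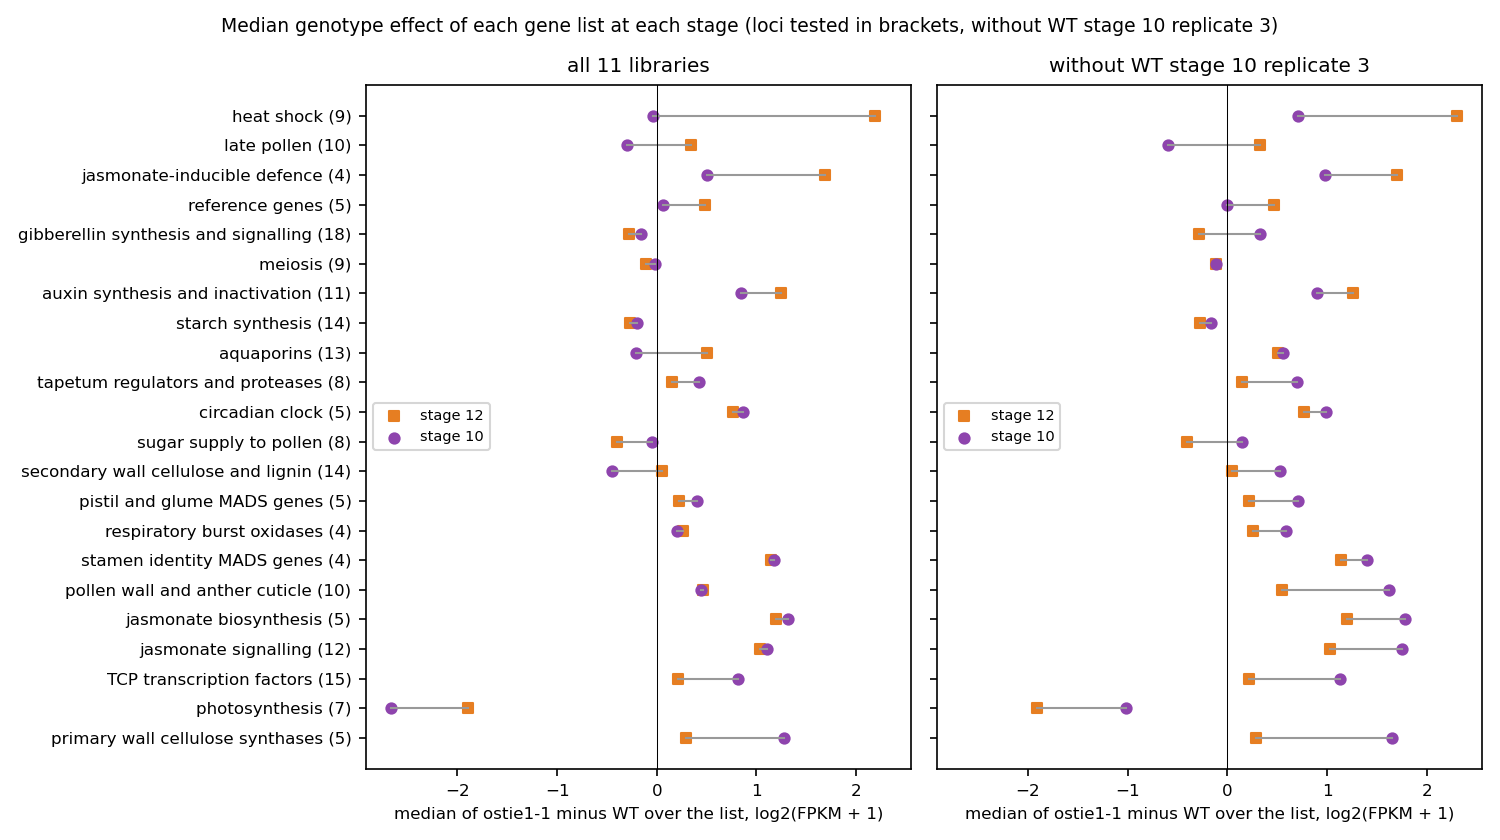
Median effect of ostie1-1 minus WT over the tested members of each gene list (log2(FPKM + 1)) at stage 12 (squares) and stage 10 (circles), with 11 libraries on the left and without WT stage 10 replicate 3 on the right. For jasmonate biosynthesis the stage 10 median is 1.32 on the left and 1.78 on the right, and for photosynthesis it is -2.67 on the left and -1.01 on the right.

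SWEET11 (LOC_Os08g42350), a plasma membrane sugar transporter that supplies developing pollen and grain, came nearest to the threshold among list members. It had 137 and 88.1 FPKM in ostie1-1 at stage 12, against 166, 242 and 293 in WT, and 183, 222 and 206 in ostie1-1 at stage 10, against 93.5, 71.2 and 59.6 in WT. Every ostie1-1 library lay below WT at stage 12 and above WT at stage 10, and WT stage 10 replicate 3 lay with its group. The effect was -1.04 (SE 0.35; limma adjusted p = 0.140) at stage 12 and 1.46 (SE 0.31; adjusted p = 0.0343) at stage 10. At stage 12 relative to stage 10 it rose in WT by 1.62 (adjusted p = 0.0253), while the change in ostie1-1 was -0.88 (adjusted p = 0.146). The difference was -2.50 (SE 0.47; 95% interval -3.53 to -1.46; adjusted p = 0.146), and with 10 libraries -2.36 (SE 0.44; adjusted p = 0.0856). It passed in 1 alternative with 11 libraries, when limma weighted libraries by their spread (-2.45, adjusted p = 0.0364). That fit called 13574 loci at stage 10. SWEET11 did not pass in the other 18 alternatives with 11 libraries or in any of the 18 with 10.

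Groups in opposite order at the stages, with no overlap at either, were uncommon. With 11 libraries 55 loci (0.258% of those tested) lay above WT at stage 12 and below it at stage 10, and 34 (0.16%) the reverse, against 1331 (6.25%) above WT at both and 810 (3.81%) below at both. SWEET11 had the smallest p of the difference among these 89. The other list member among them was DMC1A (LOC_Os12g04980), a meiotic recombinase, which had 2.11 and 2.62 FPKM in ostie1-1 at stage 12, against 2.69, 2.68 and 4.71 in WT, and 4.27, 7.30 and 5.86 in ostie1-1 at stage 10, against 1.56, 1.74 and 2.42 in WT. Its difference was -1.56 (SE 0.47; limma adjusted p = 0.488) with 11 libraries and -1.71 (SE 0.43; adjusted p = 0.128) with 10. DMC1 has near-identical copies in rice, whose reads could be split between them, so this level is uncertain. Without WT stage 10 replicate 3 the counts were 210 (0.995%) above at stage 12 and below at stage 10, and 144 (0.682%) the reverse.

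The 8 tested sugar supply genes, SWEET11 included, had a median difference of -0.12 with 11 libraries and -0.24 with 10. INV4 (LOC_Os04g33720), the anther cell wall invertase, had 639.7 and 516 FPKM in ostie1-1 at stage 12, against 473, 1244 and 971 in WT, and 306, 229 and 174 in ostie1-1 at stage 10, against 785, 441 and 171 in WT. Its groups overlapped at both stages, at stage 10 through WT stage 10 replicate 3, and its difference was 0.23 (SE 0.82) with 11 libraries and 0.81 (SE 0.64) with 10. The 14 tested starch synthesis genes had medians of -0.09 with 11 libraries and -0.06 with 10. Summed over the 21 list members with data, tested or not, all libraries lay between 311.9 and 401.5 FPKM.

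The 8 tested tapetum genes had a median difference of 0.22 with 11 libraries and -0.21 with 10. With 11 libraries 7 differences were positive and 1 negative, and with 10 libraries 2 were positive and 6 negative. TDR (LOC_Os02g02820), a bHLH factor of tapetum degeneration, had 164 and 177 FPKM in ostie1-1 at stage 12, against 70.1, 100.2 and 25.5 in WT, and 366, 428 and 373 in ostie1-1 at stage 10, against 102, 115 and 648 in WT. WT stage 10 replicate 3 was the highest library, and the difference was 0.60 (SE 0.99) with 11 libraries and -0.27 (SE 0.65) with 10. AP25 (LOC_Os03g08790), an aspartic protease of tapetal cell death, had 0.123 and 0.824 FPKM in ostie1-1 at stage 12, against 0.643, 0.391 and 0.349 in WT, and 9.07, 3.87 and 6.55 in ostie1-1 at stage 10, against 0.426, 0.273 and 7.52 in WT. Its groups overlapped at stage 12, and at stage 10 only WT stage 10 replicate 3 reached the ostie1-1 range. Without that library AP25 reached an FPKM of 1 before scaling in ostie1-1 at stage 10 alone. It entered the 10-library fit through the group in which it was high, so its p there supports nothing further. The difference was -1.55 (SE 0.93; limma adjusted p = 0.999) with 11 libraries and -2.48 (SE 0.48; adjusted p = 0.0883) with 10.

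Pollen wall and cuticle genes had a median difference of -0.07 over 11 tested members with 11 libraries and -0.65 over 10 members with 10. C4 (LOC_Os08g43290), an anther lipid transfer protein, had 1.91 and 5.39 FPKM in ostie1-1 at stage 12, against 8.13, 1.65 and 0.255 in WT, and 155, 411 and 1038 in ostie1-1 at stage 10, against 32.3, 51.4 and 529 in WT. Its groups overlapped at both stages, at stage 10 through WT stage 10 replicate 3, and its difference was -1.59 (SE 1.58) with 11 libraries and -2.82 (SE 1.23) with 10.

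The 5 tested cellulose synthases of the primary wall had median effects of 0.29 at stage 12 and 1.28 at stage 10 with 11 libraries, and median differences of -0.80 with 11 libraries and -1.15 with 10. With 10 libraries 1 was called higher at stage 12 (10.9% of all loci were) and all 5 at stage 10 (18.8%), and 4 differences had an unadjusted p below 0.05 (14.5%). CESA1 (LOC_Os05g08370) had 36.4 and 37.6 FPKM in ostie1-1 at stage 12, against 23.6, 23.2 and 33.1 in WT, and 71.2, 94.9 and 84.8 in ostie1-1 at stage 10, against 27.6, 28.0 and 49.5 in WT. Its groups did not overlap at either stage, and its difference was -0.80 (SE 0.44) with 11 libraries and -1.08 (SE 0.34; limma adjusted p = 0.188) with 10. CESA5 (LOC_Os03g62090) had the one positive difference of the list, 0.17 (SE 0.53) with 10 libraries and 0.32 (SE 0.56) with 11. Secondary wall cellulose and lignin genes had median differences of 0.26 with 11 libraries and -0.41 with 10, and their summed level was 9778 FPKM in WT stage 10 replicate 3, where replicates 1 and 2 of that group had 540.2 and 680.7.

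**Figure D4:**
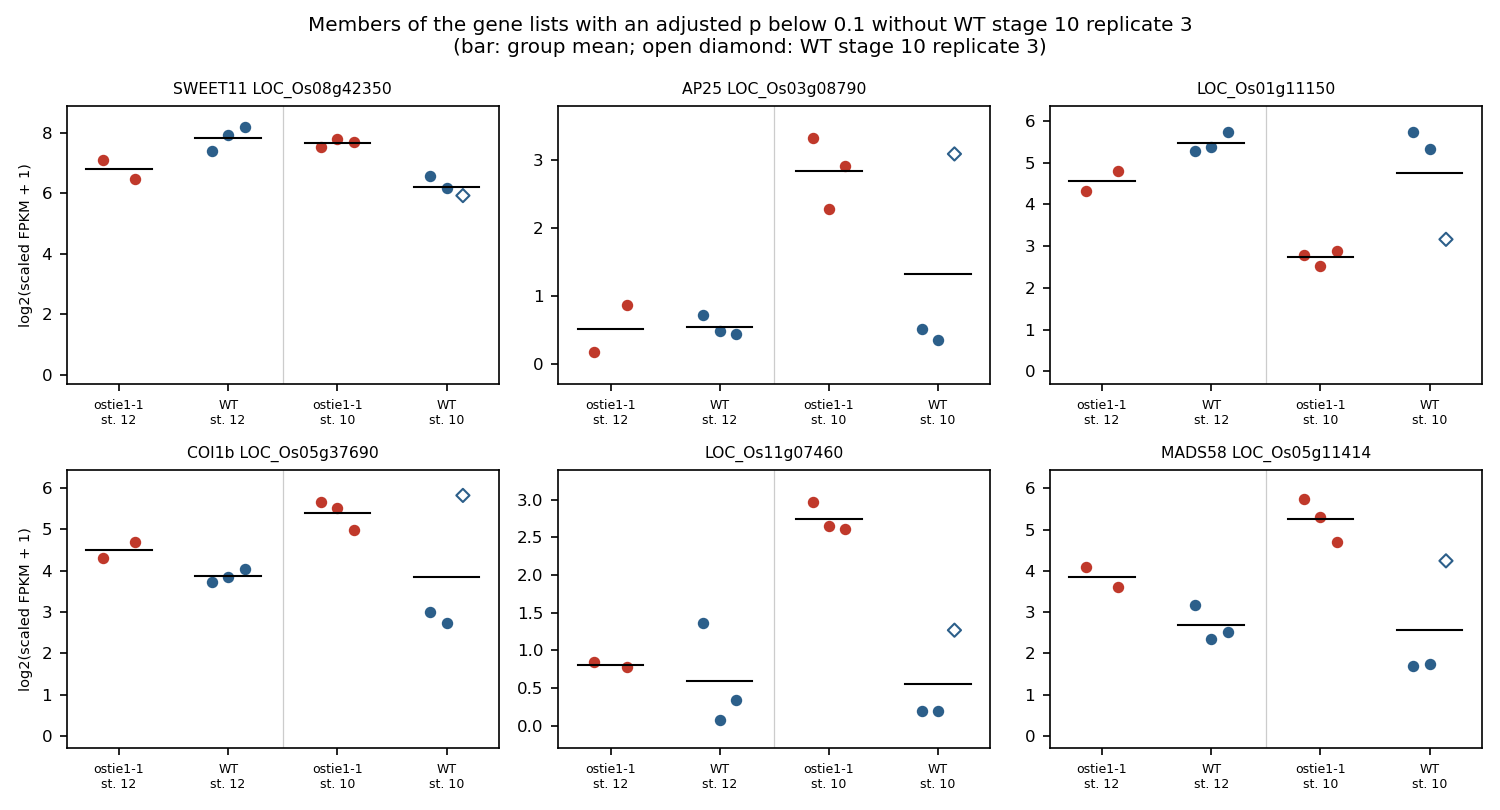
Levels of the 6 list members with an adjusted p below 0.1 for the difference without WT stage 10 replicate 3, as log2(scaled FPKM + 1) with a separate vertical axis for each. Points are libraries of ostie1-1 (red) and WT (blue) at stage 12 (left of the line) and stage 10, bars are group means and the open diamond is WT stage 10 replicate 3; SWEET11 lies below WT at stage 12 and above WT at stage 10, and at the other 5 loci the diamond lies away from the filled WT stage 10 points.

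MADS58 (LOC_Os05g11414), a C-class gene of floral organ identity, had 16.04 and 11.3 FPKM in ostie1-1 at stage 12, against 7.97, 4.13 and 4.71 in WT, and 52.9, 38.3 and 25.0 in ostie1-1 at stage 10, against 2.24, 2.34 and 17.9 in WT. The groups did not overlap at either stage. Its difference was -1.52 (SE 0.92; limma adjusted p = 0.999) with 11 libraries and -2.38 (SE 0.51; adjusted p = 0.0989) with 10. MADS3 (LOC_Os01g10504), the other C-class gene, had 101 and 100.3 FPKM in ostie1-1 at stage 12, against 28.7, 25.9 and 41.2 in WT, and 108, 193 and 132 in ostie1-1 at stage 10, against 51.3, 63.2 and 78.6 in WT. It lay above WT in every library at both stages, and its difference was 0.52 (SE 0.46) with 11 libraries and 0.36 (SE 0.42) with 10.

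MADS6 (LOC_Os02g45770), a gene of floral meristem and carpel identity and here one of the markers of pistil and glume, had 46.6 and 57.7 FPKM in ostie1-1 at stage 12, against 16.9, 1.45 and 5.63 in WT, and 76.0, 124 and 119 in ostie1-1 at stage 10, against 2.53, 1.41 and 4.97 in WT. It was called higher in ostie1-1 at both stages, by 3.00 at stage 12 and 4.82 at stage 10 (limma adjusted p = 0.0371 and 0.00265, 11 libraries), and its difference was -1.83 (SE 0.91) with 11 libraries and -2.20 (SE 0.92) with 10. Of the 10 pistil and glume markers 5 were tested and 3 were at 0 in every library. Their summed level was 87.4 and 85.9 FPKM in ostie1-1 at stage 12, against 45.3, 18.1 and 38.0 in WT, and 115.1, 168.5 and 158.9 in ostie1-1 at stage 10, against 24.8, 22.3 and 40.9 in WT. The sums stood apart at both stages. In ostie1-1 at stage 12 MADS6 alone gave 46.6 of 87.4 and 57.7 of 85.9 FPKM, and the stage 12 sums of the other markers overlapped. Over the 5 tested, the median effect was 0.22 at stage 12 and 0.41 at stage 10 with 11 libraries, against 0.05 and -0.01 over all loci. The part of these tissues in the differences was not tested.

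Among hormone genes outside the jasmonate lists, the 11 tested auxin genes had median differences of 0.40 with 11 libraries and 0.07 with 10, and the 18 gibberellin genes 0.27 and 0.26. With 10 libraries the auxin-conjugating enzymes GH3.2 (LOC_Os01g55940) and GH3.8 (LOC_Os07g40290) were called higher at both stages. The difference for GH3.2 was 1.10 (SE 1.00) with 11 libraries and 0.13 (SE 0.51) with 10, and for GH3.8 it was 1.21 (SE 1.68) with 11 and, of the opposite sign, -0.40 (SE 0.93) with 10. FIB (LOC_Os01g07500), an aminotransferase of auxin synthesis, was then called lower at both, and its difference changed sign, -0.59 (SE 1.12) with 11 libraries and 0.22 (SE 0.89) with 10. SLR1 (LOC_Os03g49990), the DELLA repressor of gibberellin signalling, was then called higher at both, and its difference changed sign too, 0.55 (SE 1.27) with 11 libraries and -0.70 (SE 0.63) with 10. With 11 libraries none of these 4 was called at either stage. LOC_Os01g11150, of the gibberellin list, had 19.0 and 27.0 FPKM in ostie1-1 at stage 12, against 37.8, 40.3 and 52.3 in WT, and 5.88, 4.72 and 6.42 in ostie1-1 at stage 10, against 52.6, 39.0 and 7.97 in WT. It lay below WT at both stages with no overlap, and its difference was 1.12 (SE 0.82; limma adjusted p = 0.999) with 11 libraries and 1.90 (SE 0.38; adjusted p = 0.0967) with 10.

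Heat shock genes had the largest median difference of the 22 lists in both fits, 2.07 over 10 members with 11 libraries and 1.42 over 9 with 10. With 11 libraries 0 were called in limma at either stage or for the difference, and 1 difference had an unadjusted p below 0.05 (5.42% of all loci did). The summed level of all 13 list members, tested or not, was 302.7 and 248.3 FPKM in ostie1-1 at stage 12, against 274.7, 17.8 and 16.6 in WT. At stage 10 it was 117.4, 81.9 and 92.3 in ostie1-1, against 32.4, 31.4 and 256.4 in WT. A single WT library at each stage lay within or above the ostie1-1 range, so the groups overlapped at both.

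Late pollen genes, the markers of mature pollen, had positive median differences (0.86 with 11 libraries and 1.07 with 10, over 10 members), and none was at 0 in every library. Their summed level was 16788 and 7238 FPKM in ostie1-1 at stage 12, against 3942, 3570 and 7175 in WT, and 638, 898.8 and 1509 in ostie1-1 at stage 10, against 1165, 751.2 and 885.9 in WT. In both fits 7 of the 10 late pollen differences were positive and 3 negative. They spanned -2.16 to 1.85 with 11 libraries and -1.84 to 1.96 with 10. Photosynthesis genes, the markers of green tissue, had a median difference of 0.77 with WT stage 10 replicate 3 and -0.90 without it, over 7 tested of 16, with 5 at 0 in every library. CAB2R (LOC_Os01g41710), a light-harvesting protein, had 18.8 and 3.93 FPKM in ostie1-1 at stage 12, against 43.4, 59.0 and 50.7 in WT, and 17.6, 8.19 and 7.99 in ostie1-1 at stage 10, against 39.2, 34.5 and 1169 in WT. It lay below WT at both stages with no overlap, and its difference was 0.98 (SE 1.64) with 11 libraries and -0.69 (SE 0.73) with 10. The 9 tested meiosis genes had medians of -0.13 and 0.19. The 5 reference genes had 0.22 and 0.30, and another scaling turned the first of these to -0.04. The part of green tissue, pollen or WT stage 10 replicate 3 in the differences above was not tested.

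Read as change over time, the difference equals the stage change in ostie1-1 minus that in WT. With 11 libraries the change from stage 10 to stage 12 passed at 2282 loci in ostie1-1 (10.7%) and at 558 in WT (2.62%). With 10 libraries it passed at 4811 loci in ostie1-1 (22.8%) and 518 in WT (2.45%). Without WT stage 12 replicate 3 the WT count was 9 and without ostie1-1 stage 12 replicate 1 the ostie1-1 count was 613, both from the 11 libraries. The gap between the counts is no test of the difference.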

How the data were processed

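RNA of whole anthers was sequenced, and the authors deposited 1 table of FPKM per transcript model for the 11 libraries. The submitters' processing notes name HISAT2 2.2.0, featureCounts and the build IRGSP-1.0; read counts were not used here and the depth is unknown. FPKM of the models of a locus were summed (66338 models, of which 185 without a locus ID were kept as entries of their own), giving 55986 entries, called loci here. Values were divided by median-of-ratios factors and taken as log2(FPKM + 1), so fold changes of low loci are understated. Loci that reached 1 FPKM in 2 or more libraries were fitted with limma 3.58.1 in R 4.3.3, with 1 mean per group, a trended prior and Benjamini-Hochberg adjustment over all loci at 0.05. Of 6457 loci with several models 1256 were tested, and of 49529 with a single model 20023. The fit was tested on simulated data with no outlying library, scaling, FPKM filter or pseudocount, so that check does not cover these.

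Members and lists were chosen with earlier results of these data known. The rule for named loci was the 2 largest positive and the 2 largest negative differences past the test at a mean FPKM of at least 5 in the highest group, list members past the test, and otherwise the smallest-p member of each jasmonate and TCP list. Alternatives were other pseudocounts, filters and scalings, library weights, a replicate block and leaving out each library. No sequence was used here.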

Additional observations from a re-analysis of the deposited data

Results flagged for a closer look

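The loci below had an effect of ostie1-1 that differed between stage 12 and stage 10 in the limma test of the difference itself (effect at stage 12 minus effect at stage 10, log2(FPKM + 1)). With all 11 libraries these were LOC_Os03g40800 with a difference of 4.015, LOC_Os04g17220 with 2.321, LOC_Os06g13780 with 2.343 and LOC_Os08g33170 with 2.32. All 4 were high in ostie1-1 at stage 12 alone.

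Without WT stage 10 replicate 3, the same test returned 15 loci. Those with a positive difference were LOC_Os03g40800 (4.034), LOC_Os07g24000 (3.341), LOC_Os06g36370 (3.166), LOC_Os06g13780 (2.371), LOC_Os04g17220 (2.352), LOC_Os08g33170 (2.258), LOC_Os12g13540 (2.043) and LOC_Os09g33700 (2.03). At LOC_Os07g24000 and LOC_Os09g33700 the positive difference came from lower levels in ostie1-1 at stage 10, and at the other 6 from higher levels in ostie1-1 at stage 12. Those with a negative difference were LOC_Os10g22362 (-3.554), LOC_Os05g37110 (-3.485), LOC_Os04g38690 (-3.445), LOC_Os02g42470 (-2.936), LOC_Os02g32850 (-2.922), LOC_Os03g47584 (-2.667) and LOC_Os07g38810 (-2.163). All 7 were higher in ostie1-1 at stage 10, and LOC_Os02g42470 was also lower in ostie1-1 at stage 12. Of the 15, 10 reached an FPKM of 1 in libraries of 1 group alone and so entered the test through the group in which they were high. LOC_Os03g40800 and LOC_Os04g38690 entered that way too, with only 1 further library at an FPKM of 1. No cause was tested for any of them.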

How the results depend on the processing

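Few loci passed the test of the difference, and the count moved with most settings. From 4 loci with 11 libraries it went to 0 with a pseudocount of 0.1, an FPKM of at least 5, TPM or a replicate block, to 7 unscaled, 9 after quantile normalization, 193 without a filter and 147 with limma array weights, and it spanned 0 to 15 when 1 library was left out. The count of loci called at 1 stage alone, 4 at first, was 0, 0, 0, 0, 7, 9, 192 and 118 under the same settings and 0 to 13 without 1 library. From 15 loci with 10 libraries the count went to 0 with a pseudocount of 0.1, an FPKM of at least 5, TPM or a replicate block, to 5 unscaled, 190 without a filter and 62 with array weights, and to 0 to 91 without 1 more library. There the count called at 1 stage alone, 13 at first, was 0, 0, 0, 0, 4, 178 and 45, and 0 to 71. All loci past the test kept their sign under each setting in which they were tested. The cause of these shifts was not tested; unfiltered and strictly filtered fits hold different numbers of loci. With array weights 1 list member passed (11 libraries).

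The effect at stage 12 (750 loci) was 284 with a pseudocount of 0.1, 1166 without a filter, 331 at an FPKM of at least 5, 499 with TPM, 1136 with array weights and 207 to 3497 without 1 library. At stage 10 (618 loci) it was 13574 with array weights, 331 with a replicate block and 157 to 7118. The change in ostie1-1 (2282) was 4002 with array weights and 613 to 4811 without 1 library, and in WT (558) 62 without a filter, 2345 with array weights and 9 to 596. The labels give no shared origin for same-numbered libraries, so the numbers were not taken as pairs. Deviations of same-numbered libraries from different groups correlated at r from -0.47 to 0.15 over 15 pairs, 2 of them over 0.1. In this measure 0 libraries were closest to their own number. With 2 or 3 libraries per group these values cannot show that pairing is absent.

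Signs turned only at loci that did not pass. With array weights and 11 libraries LOC_Os01g67430 came to -0.39, CAB2R to -0.33, TDR to -0.37, SLR1 to -0.43, AOS1 to -0.49, CESA5 to -0.14 and GH3.8 to -0.041, and with 10 libraries FIB to -0.053 and CESA5 to -0.16. With a pseudocount of 0.1 JAZ11 came to 0.16 and JAZ8 to 0.13 (11 libraries). After quantile normalization INV4 came to -0.026 (11 libraries) and GH3.2 to -0.11 (10 libraries). Leaving out 1 of the 11 libraries, the difference spanned -0.44 to 1.056 for LOC_Os01g67430, -1.67 to 0.48 for FIB, -0.69 to 1.97 for CAB2R, -0.27 to 1.08 for TDR, -0.58 to 0.28 for AOC, -0.70 to 1.23 for SLR1, -0.69 to 0.75 for AOS1, -0.025 to 0.63 for CESA5, -0.27 to 0.81 for INV4, -0.40 to 2.13 for GH3.8, -0.55 to 0.14 for JAZ8 and -1.48 to 0.070 for PCF8. Leaving out 1 of the 10, it spanned -0.91 to 0.036 for LOC_Os01g67430, -0.86 to 1.30 for FIB, -1.70 to 0.31 for CAB2R, -0.20 to 0.39 for GH3.2, -0.81 to 0.15 for TDR, -0.19 to 0.48 for CESA5 and -1.01 to 0.21 for GH3.8.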
